A study of Homo sapiens with 6 samples.

Results

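Olfactory receptor (OR) genes of chromosome 11 were examined for TLE3 occupancy in a human breast cancer cell line, MDA-MB-453. The members were the protein-coding genes of chromosome 11 in RefSeq on GRCh38 whose symbol is OR followed by a number, letters and a number. The rule found 171 genes, of which 168 have a position on the chromosome itself, among 19821 protein-coding genes placed on the genome. The other 3 (OR8U8, OR8U9 and OR9G9) are listed on alternate sequence and were not analysed. The 168 were set against the 1129 other protein-coding genes of chromosome 11.

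OR genes encode the odorant receptors of the nose, a very large family of G protein-coupled receptors that lie in clusters on many chromosomes. An olfactory neuron transcribes a single OR allele, and most other tissues leave the family silent. In mice, the silent OR clusters of olfactory neurons carry heterochromatin marks, and the factors LHX2, LDB1 and EBF act at their enhancers. TLE3 is a Groucho-family corepressor that reaches chromatin through the DNA-binding factors it partners with, and FOXA1 is a forkhead pioneer factor active in luminal breast cancer. The peak lists hold no RNA, so whether OR genes were silent in these cells was not measured.

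The study asked whether TLE3 binding requires FOXA1 and used ChIP-seq, the sequencing of DNA pulled down with an antibody, here against TLE3. Transient silencing of FOXA1 gave the libraries siFOXA1 1 and siFOXA1 2, and the cells without it gave the libraries siNS 1 and siNS 2. All 4 came from MDA-MB-453 with the same TLE3 antibody and a protein cross-linker before formaldehyde, and their titles mark biological replicates. Peak calls per library numbered 12249 and 13754 in siFOXA1, against 45105 and 46586 in siNS, on the autosomes and X. On chromosome 11 they numbered 620 and 727 in siFOXA1, against 2662 and 2527 in siNS. The lists give no reads, so depth is unknown, no test on counts could be made, and the level of FOXA1 itself was not measured. The question for the OR genes was how often they had a TLE3 peak and whether that share differed between siFOXA1 and siNS as it did at other genes.

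Only 4 OR genes had a TLE3 peak within 1 kb in any library, which is 2.38% of 168 (exact 95% binomial interval 0.652 to 5.98%), against 81.0% of the other chromosome 11 genes. They were OR52K1, OR9Q1, OR10Q1 and OR10G7, and 164 OR genes had none. At OR10G7 and OR52K1 a peak overlapped the start of the gene. The sequence from 250 bases before to 50 after each of these starts, from RefSeq on GRCh38.p14, is shown because these were the OR starts that a TLE3 peak covered, among the 135 of 168 OR genes with a sequence there. Capitals mark matches to the 4 motifs searched on both strands, which were TGTTTAC and TGTTTGC for forkhead factors, CCCNNGGG for EBF-type factors and TAATTA for homeodomain factors such as LHX2.
OR10G7 (chr11:124041276-124041575, minus strand): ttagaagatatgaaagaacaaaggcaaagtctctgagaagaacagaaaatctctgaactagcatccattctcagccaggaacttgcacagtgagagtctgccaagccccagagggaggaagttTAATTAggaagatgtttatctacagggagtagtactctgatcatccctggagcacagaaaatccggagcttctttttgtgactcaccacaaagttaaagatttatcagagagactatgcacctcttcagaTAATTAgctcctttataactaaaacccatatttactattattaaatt
OR52K1 (chr11:4482396-4482695, plus strand): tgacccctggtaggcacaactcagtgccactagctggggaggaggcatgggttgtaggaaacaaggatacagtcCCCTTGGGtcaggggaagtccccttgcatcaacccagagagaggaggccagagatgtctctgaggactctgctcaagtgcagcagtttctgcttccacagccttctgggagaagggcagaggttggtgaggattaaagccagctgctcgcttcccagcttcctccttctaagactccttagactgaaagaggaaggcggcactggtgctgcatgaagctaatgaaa
The OR10G7 stretch was 38.7% G and C and held 2 homeodomain matches and 1 CpG. The OR52K1 stretch was 54.7% G and C and held 1 EBF-type match and 2 CpGs. Neither stretch had a forkhead match, and no matches overlapped.

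The OR promoters differed from other promoters in base composition. The median G and C content was 37.0% over the 135 OR promoters (24.3 to 57.0%), against 62.0% over 818 other chromosome 11 promoters. The median number of CpGs was 1 in OR promoters, with none in 36 of them, against 22 in the others. The homeodomain letters TAATTA occurred in 24.4% of OR promoters and in 3.36% of the 15813 promoters of all protein-coding genes with a sequence. CCCNNGGG occurred in 8.15% of OR promoters, against 21.5% of all. TGTTTAC occurred in 4.44% (6 promoters), against 2.68% of all, and TGTTTGC in none of the 135, against 3.17% of all. These are matches of letters in a window and show no binding, and the part of base composition in these shares was not tested. No comparison matched on G and C content was made, and 72.5% of the other chromosome 11 genes had a promoter sequence. A peak overlapped the promoter window of 1 OR gene in siFOXA1 1, 1 in siFOXA1 2, none in siNS 1 and 1 in siNS 2. In these windows 1 gene is 0.741% of the 135. Of the 818 other chromosome 11 windows, 0.611 and 1.22% had a peak in siFOXA1, against 61.6 and 56.4% in siNS. In this window the OR share was thus close to that of other genes in siFOXA1, and far lower in siNS.

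The 4 OR genes with a nearby peak did not share 1 pattern. All positions are on chromosome 11 of GRCh38 (hg38). At OR10G7 (124036013 to 124041325, minus strand), the siFOXA1 1 and siFOXA1 2 peaks joined spanned the whole promoter window, as a region from 124041264 to 124041638. The siFOXA1 1 peak covered the start of the gene, while the siFOXA1 2 peak lay 8 bp outside the gene. This region had the authors' deposited peak scores of 15.7 in siFOXA1 1 and 15.6 in siFOXA1 2, at the 73.5 and 70.0 percentile of their lists. It had no peak in siNS 1 or siNS 2. A further OR10G7 region, 35014 bp away, held a peak of siNS 1 only, which scored 6.14. The score's definition is not stated, so it serves here to rank peaks within a list, where 100 is the highest.

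OR52K1 (4482646 to 4493497, plus strand) had 2 regions. The region inside the gene (4490842 to 4491263) scored 22.2 in siFOXA1 1 and 20.9 in siFOXA1 2, at the 83.8 and 79.6 percentile, with no siNS peak. The region at its start (4482481 to 4482736) held a peak of siNS 2 only, which scored 5.68, at the 16.5 percentile. OR52K1 thus had a peak of each group at different places.

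OR9Q1 (58023881 to 58181616, plus strand) is a long member of 157736 bp, against a median of 1103 bp over the OR genes, and had 4 regions, all inside the gene. The region 725 bp from its start (58024606 to 58025091) scored 17.1 in siNS 1 and 10.9 in siNS 2, and a neighbouring region (58027842 to 58028165) scored 5.54 in siNS 1 and 10.7 in siNS 2. Neither had a siFOXA1 peak. A further region (58039622 to 58040119), 7716 bp beyond OR6Q1, a short OR gene nested in OR9Q1, scored 5.50 in siFOXA1 1 and 18.2 in siFOXA1 2 and had no siNS peak, and another held a peak of siNS 2 only, at 4.55. OR10Q1 had a region within the gene (58228194 to 58228552) with a peak of siNS 1 only that scored 8.48, and a region 4781 bp away with a peak of siFOXA1 2 only that scored 10.7. None of the 8 regions within 1 kb of an OR gene held peaks of both siFOXA1 and siNS. Few regions of other chromosome 11 genes did either, at 10.2% of 3656, so 8 regions are too few to show a difference.

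The share of OR genes with a peak within 1 kb was near 1 to 2% in every library, while that of other genes was far lower in siFOXA1 than in siNS. Of 168 OR genes, 3 in siFOXA1 1 and 3 in siFOXA1 2 had one (1.79% each, exact interval 0.370 to 5.13%), against 2 in siNS 1 and 2 in siNS 2 (1.19% each, 0.144 to 4.23%). Of 1129 other genes, 181 and 205 had one in siFOXA1 (16.0 and 18.2%), against 863 and 815 in siNS (76.4 and 72.2%). The other genes averaged 17.1% ± 1.50 in siFOXA1 and 74.3% ± 3.01 in siNS (SD, n = 2 each), a difference of -57.2 percentage points, and of -22.8 when all lists were cut to the length of the shortest. For OR genes the difference was 0.595 percentage points, which is 1 gene. Exact permutation of the library labels, two-sided, gave p = 0.33 for both, the smallest value that 2 against 2 libraries allow. Over merged regions (peaks of the 4 lists that share at least 1 bp), 3 OR genes were within 1 kb of a region with a siFOXA1 peak and 3 of one with a siNS peak, against 21.0% and 80.4% of the other genes. A region with peaks of both siFOXA1 libraries lay within 1 kb of 3 OR genes and 13.5% of other genes, and a region with peaks of both siNS libraries lay within 1 kb of 1 OR gene and 65.7% of other genes.

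**Figure D1:**
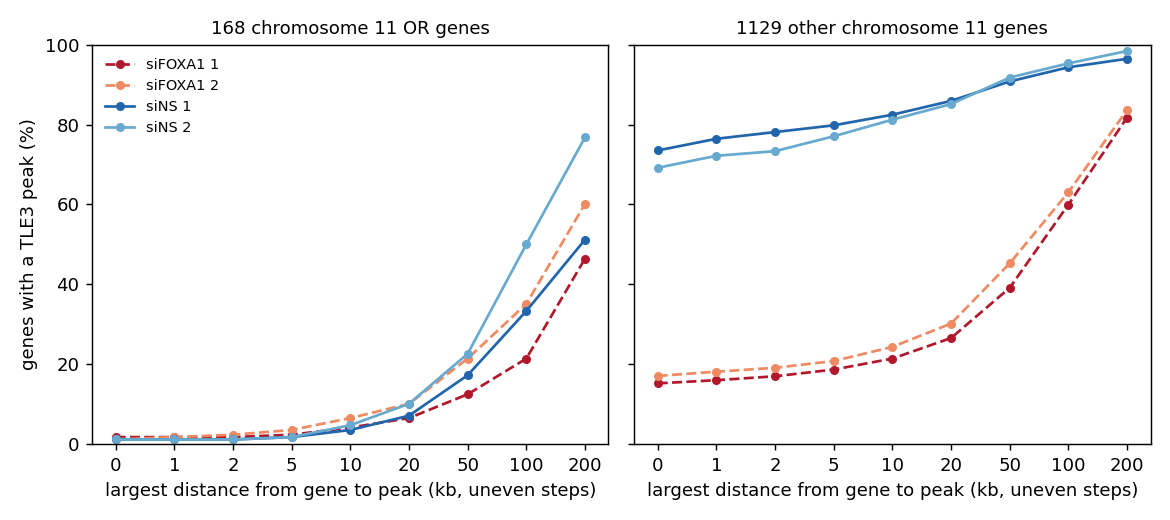
Share of genes (%) with a TLE3 peak at or within each distance (kb, uneven steps), for 168 chromosome 11 OR genes (left) and 1129 other chromosome 11 genes (right), with 1 line per library. Within 1 kb all 4 libraries lie between 1.19 and 1.79% for OR genes, while siFOXA1 lies at 16.0 and 18.2% and siNS at 76.4 and 72.2% for the others.

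At 2 and 5 kb both siFOXA1 libraries stayed above both siNS libraries at OR genes, by only a few genes. From 10 kb on the groups overlapped, as the plot of share against distance shows. By overlap alone, 3 and 2 OR genes had a peak in siFOXA1, against 2 in each siNS library. Within 2 kb, 3 and 4 OR genes had a peak in siFOXA1, against 2 in each siNS library. Within 5 kb, 4 and 6 had one in siFOXA1, against 3 in each siNS library. Within 10 kb, 7 and 11 OR genes had a peak in siFOXA1, against 6 and 8 in siNS. Within 100 kb these were 36 and 59 in siFOXA1, against 56 and 84 in siNS, so the groups still overlapped. Of the other genes, 18.7 and 20.8% had a peak within 5 kb in siFOXA1, against 79.8 and 77.1% in siNS. Within 10 kb these shares were 21.4 and 24.4% in siFOXA1, against 82.5 and 81.2% in siNS. Within 100 kb they were 60.0 and 63.1% in siFOXA1, against 94.3 and 95.3% in siNS. The median distance from an OR gene to the nearest peak was 226 and 154 kb in siFOXA1, against 194 and 100 kb in siNS. For other genes it was 74.0 and 60.2 kb in siFOXA1, and 0 kb in both siNS libraries.

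In all, 33 of 4024 merged regions of chromosome 11 had an OR gene as the nearest protein-coding gene within 100 kb, and these included the 8 within 1 kb. They belonged to 17 OR genes, which is 10.1% of 168, against 82.6% of the other genes. Any siFOXA1 library gave an assigned region to 13 OR genes (7.74%) and 28.3% of other genes, and any siNS library to 12 OR genes (7.14%) and 80.9% of other genes. Both siFOXA1 libraries shared an assigned region at 8 OR genes (4.76%) and 17.8% of other genes, and both siNS libraries at 4 OR genes (2.38%) and 62.4% of other genes. Of the 17 genes, 5 had siFOXA1 peaks only, 8 had peaks of both groups and 4 had siNS peaks only. The same split is not given for other genes, of which 28.3% had a region of any siFOXA1 library and 80.9% of any siNS library. Genes with an assigned peak numbered 8 and 13 in siFOXA1, against 9 and 10 in siNS. The means were 6.25% ± 2.10 in siFOXA1 and 5.65% ± 0.421 in siNS (SD, n = 2 each), a difference smaller than the spread within siFOXA1 (two-sided exact permutation p = 1). Without siFOXA1 2 the difference was -0.893 percentage points. For other genes the means were 23.5% ± 1.82 in siFOXA1 and 74.0% ± 2.07 in siNS, with p = 0.33 by the same exact test. The 33 regions lay a median of 10271 bp from the gene, against 0 bp for regions of other genes, most of which overlapped the gene.

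**Figure D2:**
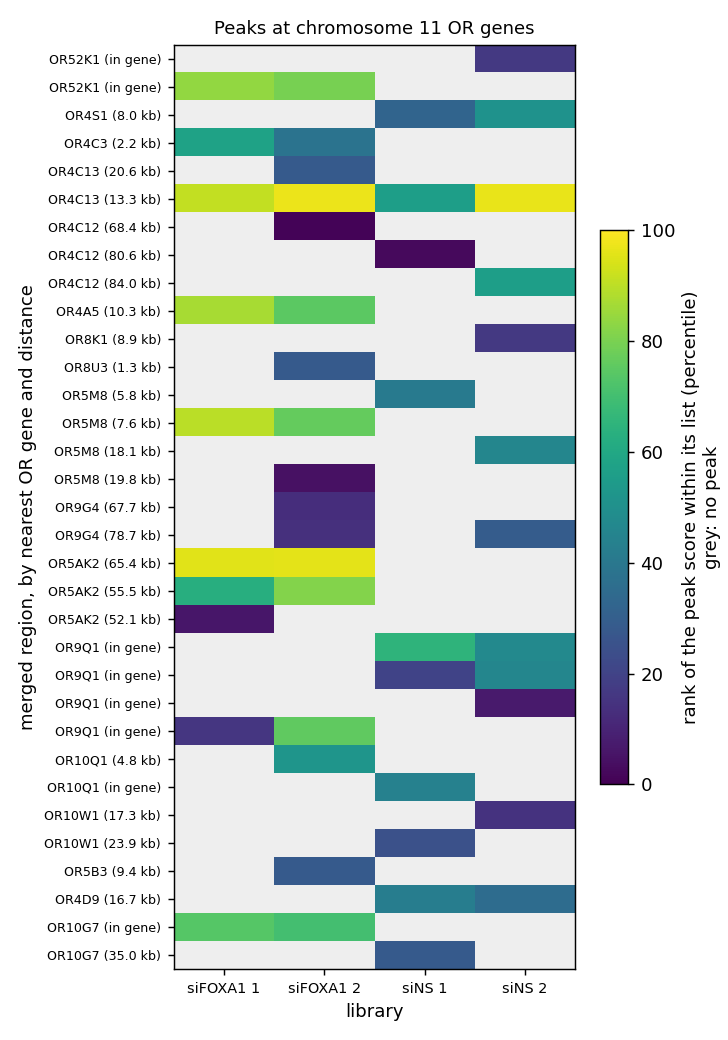
The 33 merged regions whose nearest gene is a chromosome 11 OR gene, in order along the chromosome (rows, with the gene and the distance in kb), by library (columns). Colour is the rank of the peak score within its own list (percentile, 100 is highest), grey is no peak, and only the region 13.3 kb from OR4C13 has colour in all 4 columns.

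OR genes took a larger share of the peaks of a siFOXA1 library than of a siNS library. Peaks assigned to OR genes numbered 10 and 17 in siFOXA1, against 10 and 12 in siNS, whereas those assigned to other genes numbered 483 and 558 in siFOXA1, against 2555 and 2389 in siNS. OR peaks were 1.61 and 2.34% of the chromosome's peaks in siFOXA1, against 0.376 and 0.475% in siNS. The log2 ratio of OR peaks to other peaks was -5.59 and -5.04 in siFOXA1, against -8.00 and -7.64 in siNS. The ratio is taken within a library, but it does vary with how far down a list peaks are taken. Its difference of 2.50 is the test of whether both gene groups differed alike (two-sided exact permutation p = 0.33, the smallest possible; both siFOXA1 libraries above both siNS libraries). The counts of OR peaks behind it are small, at 10 to 17 a library. Against the 61 other genes inside the OR clusters the difference was 2.04, and against the 413 other genes no longer than the 90th percentile of OR gene length, chosen once the data had been seen, it was 3.41. Without OR9Q1, also chosen then, it was 2.75. With only the peaks at or over each list's median score, the ratio was -4.91 and -4.91 in siFOXA1, against -9.29 and -8.62 in siNS, a difference of 4.04.

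The siNS peaks near OR genes ranked low in their lists. The median percentile of OR peaks was 78.6 in siFOXA1 1 and 52.1 in siFOXA1 2, against 36.6 in siNS 1 and 40.7 in siNS 2. Peaks of other chromosome 11 genes had medians of 49.9 and 48.5 in siFOXA1, against 48.7 and 49.1 in siNS. When each list was cut to its 12249 highest-scoring peaks, the length of the shortest, OR genes kept 10 and 15 peaks in siFOXA1, against 0 and 1 in siNS. Other genes then had 483 and 504 peaks in siFOXA1, against 693 and 626 in siNS. At equal length, 8 and 12 OR genes had an assigned peak in siFOXA1, against 0 and 1 in siNS, a mean difference of 5.65 percentage points. Of other genes, 22.2 and 23.5% had one in siFOXA1, against 42.2 and 33.7% in siNS, a mean difference of -15.1 percentage points.

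The 33 OR regions were split between the groups. Peaks of siFOXA1 and none of siNS were found in 16 (48.5%, exact 95% binomial interval 30.8 to 66.5%), against 8.78% (7.88 to 9.74%) of the 3656 regions of other genes. Peaks of siNS and none of siFOXA1 were found in 15 (45.5%), against 81.0% of the others. Peaks of both groups were found in 2 (6.06%), against 10.2% of the others. Regions found in both siFOXA1 libraries and no siNS library numbered 8 of 33 (24.2%), against 2.76% of the others, and regions found in both siNS libraries and no siFOXA1 library 4 of 33 (12.1%), against 31.6%. Of the 335 regions with no protein-coding gene within 100 kb, 42.4% held siFOXA1 peaks and none of siNS, a share inside the interval of the OR regions. Regions are not replicates, so no p-value is given, and the intervals cover counting error only.

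**Figure D3:**
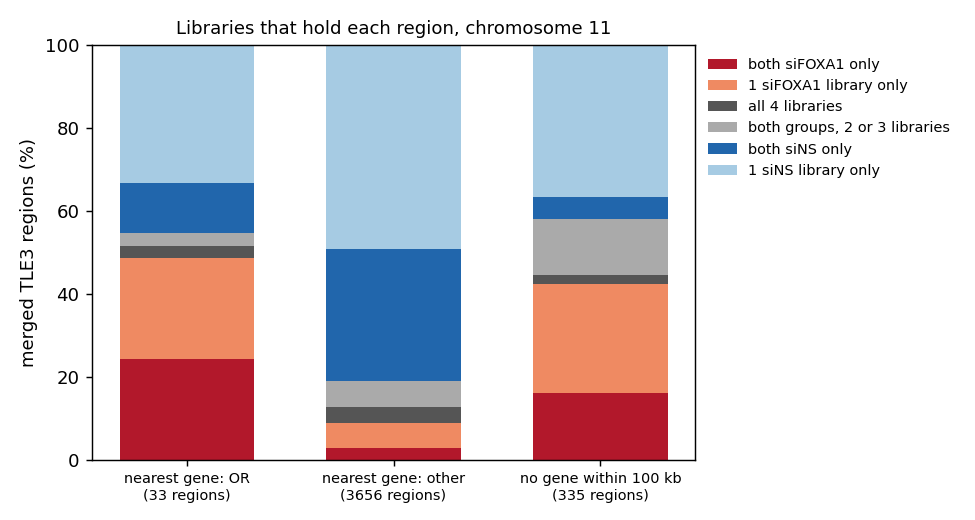
Share (%) of chromosome 11 merged regions by the libraries that hold them, for regions nearest to an OR gene (left bar), nearest to another protein-coding gene (middle) and with no protein-coding gene within 100 kb (right). Red and orange (siFOXA1 only) sum to 48.5%, 8.78% and 42.4%, and blue (siNS only) to 45.5%, 81.0% and 42.1%.

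OR regions called in both siFOXA1 libraries and no siNS library ranked high at the median, but not throughout. They ran from the 15.6 to the 95.4 percentile in siFOXA1 1, and from the 37.9 to the 95.8 percentile in siFOXA1 2. The 8 OR regions with both siFOXA1 and no siNS peaks had a median percentile of 78.6 in siFOXA1 1 and 75.9 in siFOXA1 2, and the 101 such regions of other genes had 54.9 and 62.3. The 4 OR regions with both siNS and no siFOXA1 peaks had medians of 37.3 in siNS 1 and 46.5 in siNS 2, against 70.6 and 59.3 for the 1157 such regions of other genes. Of the 10 OR peaks of siFOXA1 1, 9 overlapped a peak of siFOXA1 2, and 9 of the 17 OR peaks of siFOXA1 2 overlapped one of siFOXA1 1. Between the siNS libraries 5 of 10 and 5 of 12 did. For peaks of other genes the shares were 69.6 and 60.0% between the siFOXA1 libraries, against 56.8 and 64.3% between the siNS libraries. Each lay inside the exact interval of the matching OR share, so the OR counts are too few to show a difference. These intervals were 55.5 to 99.7% and 27.8 to 77.0% for siFOXA1, and 18.7 to 81.3% and 15.2 to 72.3% for siNS. Only 5 OR regions formed a siNS consensus (a peak of both siNS libraries), and 1 of these overlapped a siFOXA1 peak, too few to set against the 16.2% of 1381 consensus regions of other genes (exact interval for the OR regions 0.505 to 71.6%).

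A region 13275 bp from OR4C13 (49938599 to 49939116) was the only 1 of the 33 with a peak in all 4 libraries, and held the highest-scoring OR peak of siFOXA1 2 and of siNS 2. It scored 32.0 in siFOXA1 1 and 66.4 in siFOXA1 2, at the 90.9 and 97.0 percentile, against 12.3 in siNS 1 and 105 in siNS 2, at the 56.2 and 96.5 percentile. OR5AK2 had 3 regions, all without a siNS peak and 52141 to 65405 bp from the gene. The best of them (56922949 to 56923509) scored 46.9 in siFOXA1 1, the highest OR peak of that library, and 55.4 in siFOXA1 2, at the 95.4 and 95.8 percentile. In siNS 1 the highest OR peak was that of OR9Q1 with a score of 17.1, given above. OR5M8 had 4 regions within 20 kb, of which the region 7643 bp away (56499013 to 56499400) scored 29.5 in siFOXA1 1 and 18.6 in siFOXA1 2 with no siNS peak. The other 3 OR5M8 regions each held a peak of 1 library, namely siFOXA1 2, siNS 1 and siNS 2. OR4C12 had 3 regions, each of a single library and 68362 to 84016 bp away. With OR9Q1 these were the OR genes with more than 2 regions, and 6 genes had 2.

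Both siFOXA1 and neither siNS library also had a peak 10271 bp from OR4A5 (scores 25.5 in siFOXA1 1 and 17.9 in siFOXA1 2) and 2183 bp from OR4C3 (scores 10.9 and 8.36). Both siNS and neither siFOXA1 library had a peak 8049 bp from OR4S1 (scores 6.71 in siNS 1 and 12.1 in siNS 2) and 16709 bp from OR4D9 (scores 8.17 and 8.38). OR4S1 and OR4C3 lie in the same cluster, and each had 1 region. Single-library regions made up 19 of the 33. OR8U3 and OR5B3 had 1 region each, with a peak of siFOXA1 2 only (score 7.27 in both cases), and OR8K1 had 1 region with a peak of siNS 2 only (score 5.68). OR10W1 had 2 regions, with a peak of siNS 1 (score 5.80) and of siNS 2 (score 5.54), and no siFOXA1 peak. A region 78657 bp from OR9G4 held peaks of siFOXA1 2 (score 5.46) and siNS 2 (score 7.32). The peaks of the 19 single-library regions ranked from the 0.902 to the 52.1 percentile in siFOXA1, and from the 2.69 to the 55.9 percentile in siNS. OR peaks had median widths of 501 and 312 bp in siFOXA1, against 289.5 and 312 bp in siNS, while peaks of other genes had 334 and 348 bp in siFOXA1, against 421 and 463 bp in siNS.

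The OR genes lay in 7 clusters when gaps of up to 1 Mb were bridged. The largest ran from OR52B4 to OR10A3 (4367263 to 7941708) with 67 OR genes, and 55 of these were the class I genes of families 51, 52 and 56, the receptors that resemble those of fish. Of the 55 class I genes only OR52K1 had a region assigned, with 2 regions, against 16 of the 113 class II genes with 31. The 12 class II genes of this largest cluster had no region assigned either. The contrast is thus also one between clusters, and the part of class was not tested. Within 1 kb the classes were alike, on at most 2 genes of a class in a library. Of class I genes, 1.82% had a peak in each siFOXA1 library, against 0% in siNS 1 and 1.82% in siNS 2. Of class II genes, 1.77% had one in each siFOXA1 library, against 1.77% in siNS 1 and 0.885% in siNS 2. The largest cluster also held 43 other protein-coding genes, and their part in the assigned counts was not tested. OR51E1 and OR51E2, class I receptors known from prostate tissue, had no peak within 100 kb in siFOXA1. The nearest siNS peaks were 35835 and 35372 bp from OR51E1 and 72024 and 71561 bp from OR51E2, and these peaks have other genes nearer to them. The cluster from OR4B1 to OR4A47 (48216810 to 48489722) held 7 OR genes and 1 peak in each library, and the pair OR4C13 and OR4C12 had no peak between them. The cluster from OR4C46 to OR5AK2 (54603069 to 56989843) held 48 OR genes and only 2 other protein-coding genes. It had 6 and 10 peaks in siFOXA1, against 1 and 5 in siNS, and both siFOXA1 libraries lay above both siNS libraries. The cluster from OR9Q1 to OR10V1 (58023881 to 59713845) held 21 OR genes and 14 others, with 7 and 12 peaks in siFOXA1 and 27 in each siNS library. The cluster from OR6X1 to OR8A1 (123753580 to 124571374) held 22 OR genes, with 2 peaks in each siFOXA1 library and 1 in each siNS library. OR2AT4, a receptor known from skin keratinocytes, stood alone and had no region.

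Peaks were sparser in the OR clusters than in the rest of chromosome 11 in every library, and by more in siNS. The clusters held 2.62 and 3.64 peaks per Mb in siFOXA1, against 6.60 and 7.28 in siNS, over 8.79 Mb. The rest of the chromosome within 100 kb of a gene held 4.99 and 5.77 peaks per Mb in siFOXA1, against 26.6 and 24.8 in siNS. The clusters thus had 0.524 and 0.632 times the density of the rest in siFOXA1, against 0.248 and 0.294 times in siNS (two-sided exact permutation p = 0.33, the smallest possible). Outside protein-coding genes and their 1 kb flanks, the clusters had 2.11 and 3.69 peaks per Mb in siFOXA1, against 3.52 and 3.34 in siNS, so the groups overlapped there (exact permutation p = 1). The rest of the chromosome had 5.10 and 5.65 in siFOXA1, against 16.7 and 17.8 in siNS, on the same measure. The direction in the clusters depended on list length: with lists of equal length they held 2.62 and 3.53 peaks per Mb in siFOXA1, against 1.37 and 1.25 in siNS.

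**Figure D4:**
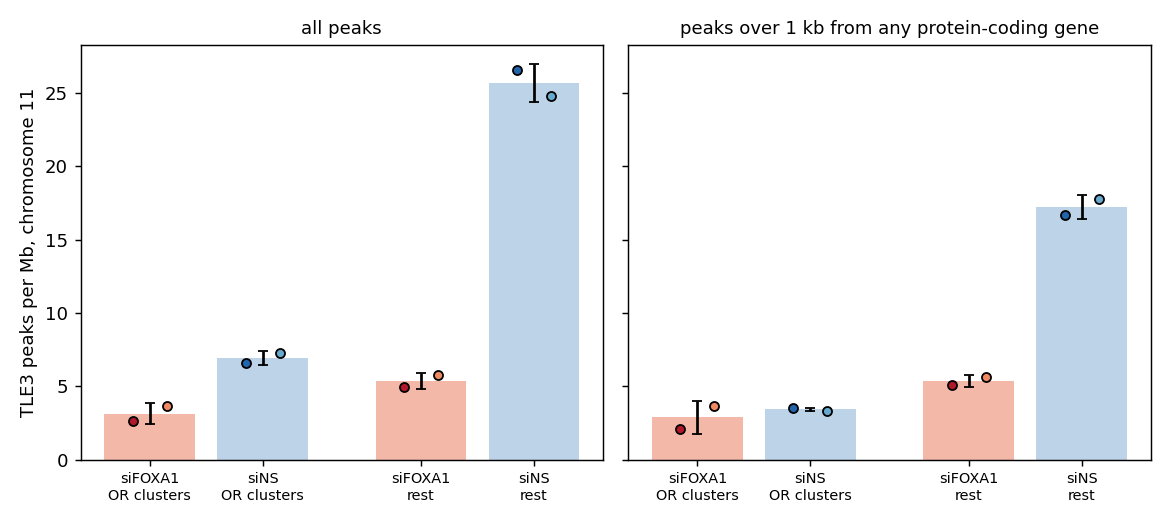
TLE3 peaks per Mb of chromosome 11 in OR clusters and in the rest, for all peaks (left) and for peaks over 1 kb from any protein-coding gene (right). Bars are means of 2 libraries, error bars the SD and points the libraries, and in the right panel the OR clusters hold 2.11 and 3.69 peaks per Mb in siFOXA1 and 3.52 and 3.34 in siNS.

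Other genes inside the same clusters had peaks within 1 kb in a larger share than the OR genes around them in every library. Of these 61 genes, 7 and 6 had one in siFOXA1 (11.5 and 9.84%), against 27 and 32 in siNS (44.3 and 52.5%). Of the 413 other chromosome 11 genes no longer than the 90th percentile of OR gene length, 4.60 and 5.81% had a peak within 1 kb in siFOXA1, against 66.6 and 58.1% in siNS. In siFOXA1 1 the share of these shorter genes lay inside the exact interval of the OR share, and in both siNS libraries it lay far above it. Their lengths were not matched to those of the OR genes, of which 92 were under 2 kb, against 67 of all 1129 other genes, and the part of gene length in the OR share was not tested.

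The counts of gene families of chromosome 11 with roles in other tissues are to be read against the other genes of chromosome 11, of which 16.0 and 18.2% had a peak within 1 kb in siFOXA1, against 76.4 and 72.2% in siNS. None of the 5 beta-globin genes, which lie within the largest OR cluster, had a peak within 1 kb in any library. The MS4A genes, mostly of blood cells, had a peak in 1 of 16 cases in each siFOXA1 library, against 1 in siNS 1 and 5 in siNS 2. The MMP genes, secreted proteases, had one in 1 of 10 cases in each siFOXA1 library, against 2 in each siNS library. KRTAP5 genes, of hair keratin-associated proteins, had none of 11 in either siFOXA1 library, against 3 in siNS 1 and none in siNS 2. MRGPR genes, of sensory neuron receptors, had none of 8 in siFOXA1, against 2 in each siNS library. TRIM genes, of ubiquitin ligases that are in part interspersed with OR genes, had one in 4 of 23 cases in each siFOXA1 library (17.4%, a share between those of the other genes), against 6 and 8 in siNS (26.1 and 34.8%). Of the apolipoprotein genes, 0 of 4 had one in each siFOXA1 library, against 2 and 3 in siNS.

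**Figure D5:**
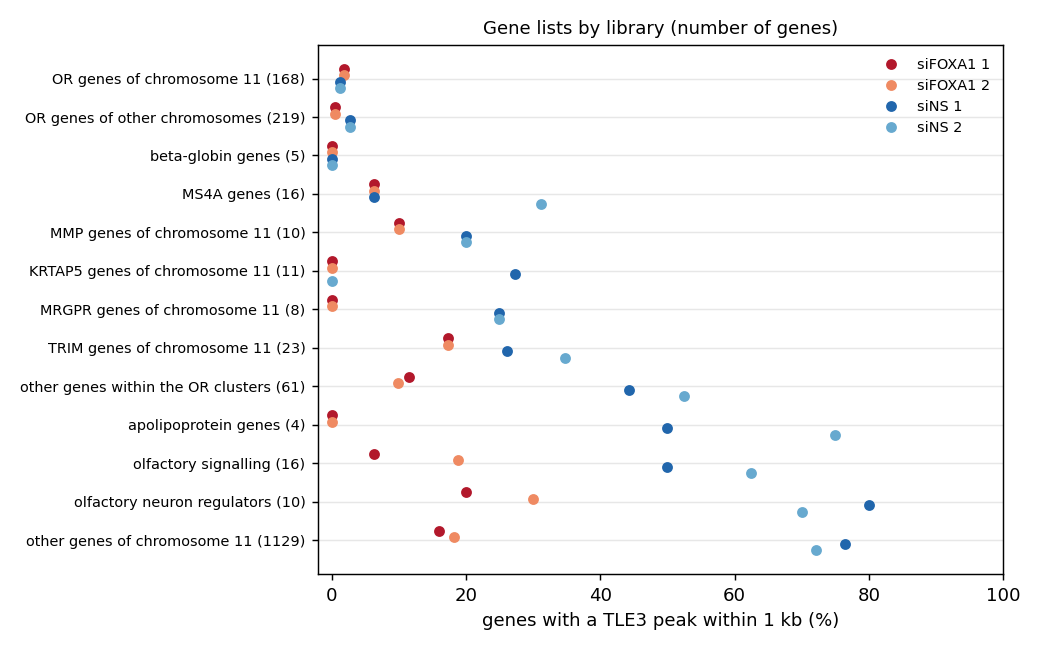
Share (%) of the genes of each list with a TLE3 peak within 1 kb, 1 point per library, with the number of genes in brackets. Both OR lists lie under 3% in all 4 libraries, while other genes of chromosome 11 lie at 16.0 and 18.2% in siFOXA1 and at 76.4 and 72.2% in siNS.

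Genes that work with the receptors in olfactory neurons, most of them on other chromosomes, are given beside the other protein-coding genes there, of which 17.9 and 19.2% had a peak within 1 kb in siFOXA1, against 75.1 and 71.8% in siNS. Of 16 olfactory signalling genes, 1 and 3 had one in siFOXA1 (6.25 and 18.8%), against 8 and 10 in siNS (50 and 62.5%). ADCY3, the adenylyl cyclase of odour transduction, GNAL, its stimulatory G protein subunit, and CNGA4, a channel subunit on chromosome 11, had one in siNS 1 and siNS 2 and none in siFOXA1. ANO2 had one in all 4 libraries, RIC8B in siFOXA1 2 and both siNS libraries, and PDE1C in siFOXA1 2 and siNS 2. OMP, the olfactory marker protein gene on the same chromosome, had none in any library, and neither had RTP1, RTP2, STOML3, GFY or CNGA2. Of 10 listed genes of olfactory neurons, regulators apart from the adhesion molecule gene NCAM2, 2 and 3 had a peak in siFOXA1 (20 and 30%). In siNS 8 and 7 had one (80 and 70%), and LHX2, LDB1 and KDM1A had one in both siNS libraries only. EBF1 and NCAM2 had one in all 4 libraries, and EBF2 had one in siFOXA1 2 only. Of the basal markers KRT5, KRT14 and TP63, only TP63 had one, in all 4 libraries.

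OR genes of other chromosomes also had few peaks, with more in siNS than in siFOXA1. Of 219 such genes, 1 had a peak within 1 kb in each siFOXA1 library (0.457%), against 6 in each siNS library (2.74%). The share over other protein-coding genes of those chromosomes was 17.9 and 19.2% in siFOXA1, against 75.1 and 71.8% in siNS. The gene with the siFOXA1 peaks was OR13J1 on chromosome 9, which also had one in siNS 2. Over the 387 OR genes of all chromosomes the share was 1.03% in each siFOXA1 library, against 2.07% in each siNS library, while that of all other genes was 17.8 and 19.2% in siFOXA1, against 75.1 and 71.8% in siNS. The difference of -1.03 percentage points had the opposite sign to that on chromosome 11 alone. OR peaks over other peaks still formed a larger ratio in siFOXA1, by 1.47 on the log2 scale, with p = 0.33 in the exact permutation test. This pooled ratio includes chromosome 11, which gave 10 and 17 of the 19 and 30 OR peaks in siFOXA1. On the other chromosomes alone, OR peaks numbered 9 and 13 in siFOXA1, against 25 and 28 in siNS. Peaks of other genes there numbered 8831 and 9762 in siFOXA1, against 39903 and 40073 in siNS. The ratio difference was not computed for those chromosomes alone. The larger OR share of siFOXA1 peak lists thus held over all chromosomes pooled, and the slightly higher share of OR genes with a peak did not.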

How the data were processed

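For each ChIP library the authors deposited a list of peaks with positions and a score that no source defines. The submitters' processing notes name MACS2, SAMtools, BWA (0.7.5a) and Trim Galore, with hg38 as the build. Not given in the sources used here are the settings, whether inputs were used in calling, and the handling of reads that match several OR genes. Groups and replicate numbers come from the sample titles, and for siFOXA1 2 the list carries another number in its name. The 2 input libraries, labelled MDA-MB-454, were not analysed here.

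Gene positions came from RefSeq on GRCh38.p14; genes on unplaced or alternate sequence were left out. A peak went to the protein-coding gene that holds it or is nearest within 100 kb, overlapping genes being separated by the nearer gene end. Genome length was counted on a grid, with peaks placed in clusters by their midpoint. Library values were compared by exact permutation. Members, lists and comparisons were chosen with earlier results of these data known. Named are all OR genes with a region within 1 kb, those with the most regions, those of the strongest regions, and the first and last of each cluster; OR4A5, OR4C3, OR4S1, OR4D9, OR6Q1, OR8U3, OR5B3, OR8K1, OR10W1, OR9G4, OR51E1, OR51E2 and the olfactory examples were chosen after their values were seen. The luminal marker list is not reported here. On simulated data 200 of 200 planted peaks were assigned to their gene, and overlap counts equalled bedtools in 12 of 12 library pairs. Python 3.11.15, numpy 2.4.6, scipy 1.17.1, pandas 2.3.3, matplotlib 3.10.9 and bedtools 2.31.1 were used.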

Additional observations from a re-analysis of the deposited data

How the results depend on the processing

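The difference between siFOXA1 and siNS in the share of OR genes with a peak within 1 kb stayed above 0 under the alternatives run on chromosome 11 (0.298 to 1.79 percentage points; 0.595 without each library in turn), and was -1.03 over the OR genes of all chromosomes. The share with an assigned peak ran from -0.893 (without siFOXA1 replicate 2) to 2.08 (without siFOXA1 replicate 1) with 1 library left out, reached 2.98 for peaks with the median score or more and 5.65 with lists of equal length, and was -2.84 over all chromosomes. The lower share of other genes in siFOXA1, and the larger ratio of OR to other peaks, kept their direction under each alternative run, the ratio between 2.22 and 2.78 (log2) when 1 library was left out. It was 4.04 for the higher-scoring peaks of each list (median score or more) and could not be computed for lists of equal length, where siNS 1 had no OR peak. Cluster density differed by -3.81 peaks per Mb, by -4.32 to -3.30 without each library in turn, by -1.54 with cluster gaps of up to 500 or 250 kb, and by 1.76 with lists of equal length, the reverse direction.

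The share of OR regions with siFOXA1 and no siNS peak was 69.2% for peaks at or above the median score and 93.8% for lists of equal length, and 34.6 to 63.0% without 1 library. For regions of other genes it was 8.57% at or above the median score and 5.47 to 15.6% without 1 library. With lists of equal length it rose at other genes too, from 8.78 to 32.8%. The kept share of OR siNS consensus regions was 100% (1 of 1) at or above the median score and 0% (0 of 2) within 1 kb. It was 20% (1 of 5) without either siFOXA1 library. With 1 siNS library left out there is no consensus, and all OR regions of the other siNS library were counted. The kept share was then 16.7% (2 of 12) without siNS 1 and 10% (1 of 10) without siNS 2. With lists of equal length no consensus region was left. Requiring 50% overlap changed neither OR share. The labels give replicate numbers but nothing that ties siFOXA1 and siNS libraries of a number together. With the replicate block the OR difference within 1 kb was 0.595 percentage points and the log2 ratio difference 2.50, with p = 0.5 in an exact permutation within numbers, the smallest possible.

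Depth is unknown, and the low number of OR regions limits each comparison among them.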
